A study of Mus musculus with 8 samples.

Results

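The cytosolic ribosomal protein genes encode the proteins of the ribosome that translates nuclear mRNAs. They were taken by symbol from the protein-coding genes of GENCODE release M21, as Rpl or Rps followed by digits and at most 1 letter a, x or l, together with Rplp0, Rplp1, Rplp2 and Rpsa. This rule gave 80 genes of 55341 annotated gene symbols, with 49 genes of the large subunit and 31 genes of the small subunit. The study treated mouse primary hepatocytes (MPH) from wild-type adult male mice labelled C57Bl6 (C57BL/6J in the study's methods) for 4 h with 1 µM thapsigargin or with vehicle (0.04% DMSO), in serum-free medium. Thapsigargin blocks the calcium pump of the endoplasmic reticulum (ER) and thereby induces ER stress (ERS). ChIP-seq of H3K27ac, an acetylation mark of active promoters and enhancers, gave 3 libraries per treatment from independent experiments, and each treatment had 1 input library of unprecipitated chromatin. All groups share the strain, the genotype and the culture, and freshly isolated hepatocytes in culture are a model without the other cells of the liver. The processed data are 3 lists of regions on mm10, which give 5508 H3K27ac UP, 3376 H3K27ac DOWN and 23312 H3K27ac unchanged regions by position only.

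A region is UP or DOWN where the authors' paired analysis of its 150 bp bins reached an FDR of at most 0.05 and UP bins outnumbered DOWN bins at least 2 to 1, or the reverse. An unchanged region has a higher FDR, which does not show that its acetylation stayed the same. Beyond positions and names, the lists give nothing on how strongly a region or library was marked. Sequencing depth is therefore unknown, no value here has an error between the experiments, and no test between treatments could be run. A gene was given the class of every region that holds the TSS of any of its transcripts. Shares of genes are given with 95% Wilson intervals, which cover counting error only, since genes are not replicates. Among markers of liver cell types, 8 of 8 hepatocyte genes had a region at a TSS, against 1 of 5 for Kupffer cells (Cd68), 1 of 5 for endothelial cells (Stab2), and 0 of 5 stellate cell, 0 of 4 cholangiocyte and 0 of 3 leukocyte genes. The defining hepatocyte genes were thus marked, and 4 of these 8 (Apoa1, Serpina1a, Hnf4a and Fgb) lay in DOWN regions. Regions in the lists rest on bulk chromatin, in which fewer marked cells and less mark per cell cannot be told apart.

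Most ribosomal proteins are needed in equal numbers, and their genes are among the most highly transcribed of a growing cell. Their mRNAs typically begin with a C followed by a run of pyrimidines, the 5' terminal oligopyrimidine (TOP) element, through which mTOR and LARP1 set how well they are translated. ERS activates the kinase PERK (Eif2ak3), which slows initiation of translation through eIF2. Many ribosomal protein genes also host snoRNAs, small RNAs that guide the modification of ribosomal RNA, in their introns.

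TOP matches are shown first because they were found at or near starts of all 3 classes, for DOWN in Rps27l alone. A match allows the C to lie within 5 bases of the annotated start. In Rps27l the first transcribed base is a G and the run begins after it, so its mRNA as annotated does not begin with a C. The starts were picked mostly for a TOP match and are not typical of the whole family, of which 27 of 56 genes with a start in a region (48.2%) had one. The sequences are from RefSeq promoters of GRCm38.p6, the assembly of mm10, and run 5' to 3' from 40 bases before the first transcribed base to the end of the 15 bases that begin with it. Capitals mark the pyrimidine run that holds the C of the TOP match, and a sequence without capitals had no match. The first 5 genes lay in UP regions, the next 4 in unchanged regions and the last in the DOWN region.
Rplp2 (UP, chr7:141447611-141447665, plus strand): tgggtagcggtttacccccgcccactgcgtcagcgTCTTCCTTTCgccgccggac
Rpl35 (UP, chr2:39005117-39005171, minus strand): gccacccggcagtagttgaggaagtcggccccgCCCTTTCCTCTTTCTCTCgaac
Rpl38 (UP, chr11:114668540-114668594, plus strand): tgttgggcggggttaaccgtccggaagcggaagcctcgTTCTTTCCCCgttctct
Rps15a (UP, chr7:118116133-118116187, minus strand): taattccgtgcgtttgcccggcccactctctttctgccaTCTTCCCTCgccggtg
Rps28 (UP, chr17:33824548-33824602, minus strand): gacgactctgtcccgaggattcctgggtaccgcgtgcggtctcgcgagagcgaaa
Rpl28 (unchanged, chr7:4792925-4792979, plus strand): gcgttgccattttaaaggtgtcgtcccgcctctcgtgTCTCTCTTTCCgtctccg
Rps6 (unchanged, chr4:86857353-86857407, minus strand): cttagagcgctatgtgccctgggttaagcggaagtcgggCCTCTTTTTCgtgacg
Rpl15 (unchanged, chr14:18270972-18271026, minus strand): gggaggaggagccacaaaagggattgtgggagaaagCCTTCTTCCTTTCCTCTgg
Rps27 (unchanged, chr3:90213634-90213688, minus strand): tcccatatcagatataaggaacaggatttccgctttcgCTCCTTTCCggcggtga
Rps27l (DOWN, chr9:66946046-66946100, plus strand): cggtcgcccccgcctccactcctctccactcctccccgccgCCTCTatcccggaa
The runs of Rpl35 and Rpl15 were the longest of those printed, at 18 and 17 bases, and these genes lay in an UP and an unchanged region, respectively. Rps27 and its paralog Rps27l, whose regions had different classes, had runs of 9 and 5 bases.

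Nearly all cytosolic ribosomal protein genes carried H3K27ac at a TSS. Of 80 genes, 77 (96.2%) had a region at a TSS, against 9805 of 21924 protein-coding genes (44.7%). The 3 genes without a region were the paralogs Rpl10l (chr12:66283379-66284401), Rpl39l (chr16:10170226-10174911) and Rpl3l (chr17:24727820-24736143). Rpl10l and Rpl39l are known for expression in testis and Rpl3l for expression in heart and skeletal muscle. Their widely expressed counterparts Rpl10, Rpl39 and Rpl3 each had a region, of 3285 bp, 2460 bp and 3087 bp. All 31 small subunit genes and 46 of 49 large subunit genes (93.9%) had a region.

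Most of these genes lay in unchanged regions, few in UP and a single gene in DOWN regions. Of the 77, 16 lay with a TSS in UP regions (20.8%, from 13.2% to 31.1%), where the share over all 12261 genes with a region at a TSS was 21.4%. A DOWN region held the TSS of 1 gene (1.30%, from 0.230% to 7.0%), against a background of 8.91%. Unchanged regions held 60 genes (77.9%, from 67.5% to 85.7%), against 73.7%. The UP share was thus near that of all genes, and the DOWN share was below it. The DOWN interval ended under this background but held the 6.90% of all genes found when only the most 5' coding TSS of each gene was used. Among protein-coding genes alone, 21.7% lay in UP, 8.31% in DOWN and 74.9% in unchanged regions. No ribosomal protein gene had regions of 2 classes. The genes lay in 77 distinct regions, and counted as regions 15 were UP (19.5%), against 19.2% of the 10642 regions at a TSS, and 1 was DOWN (1.30%), against 8.72%.

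**Figure D1:**
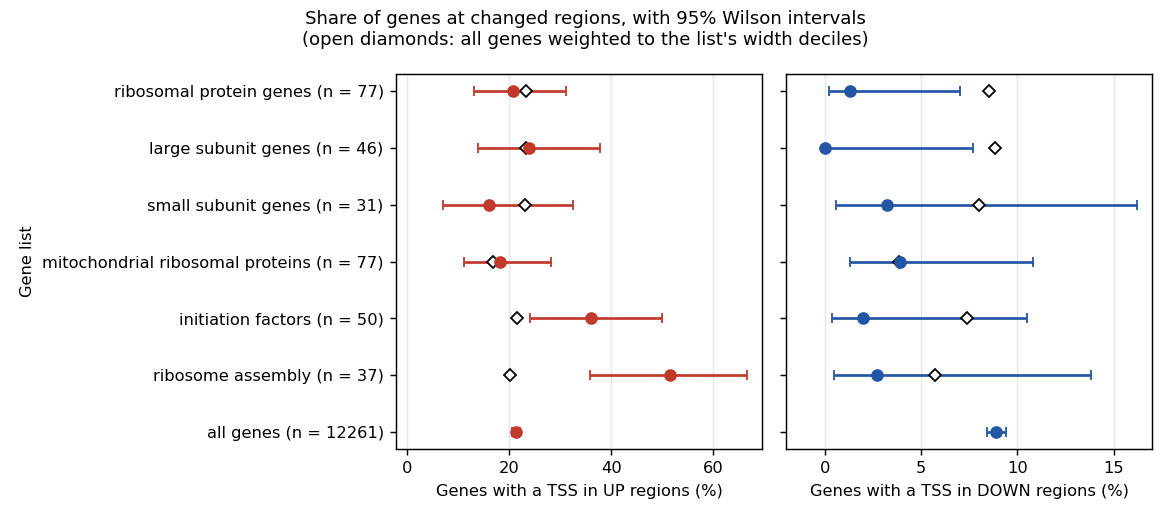
Share of genes (x axes, in percent) with a TSS in UP regions on the left and DOWN regions on the right for 7 gene lists, with points for the share, bars for the 95% Wilson interval and open diamonds for all genes weighted to the list's width deciles. Cytosolic ribosomal protein genes stood at 20.8% UP and 1.30% DOWN, against 21.4% and 8.91% of all genes with a region at a TSS. Ribosome assembly genes stood at 51.4% UP, against 20.3% of all genes weighted to their widths. That list was chosen with earlier results of these data known, and no conclusion is drawn from it.

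The intervals of the large and the small subunit overlapped in every class. UP regions held 11 of 46 large subunit genes (23.9%, from 13.9% to 37.9%) and 5 of 31 small subunit genes (16.1%, from 7.09% to 32.6%), with intervals that overlap over most of their length. DOWN regions held 0 of 46 large subunit genes, with an upper limit of 7.71%, and 1 of 31 small subunit genes (3.23%, from 0.572% to 16.2%). The remaining 35 large subunit genes (76.1%) and 25 small subunit genes (80.6%) lay in unchanged regions. Over all genes with a region at a TSS, the shares were 21.4% UP, 8.91% DOWN and 73.7% unchanged. The DOWN interval of the small subunit held that background.

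The UP genes of the large subunit came from several parts of the ribosome. Rplp0 and Rplp2 belong to the P stalk, which recruits elongation factors. Rplp0 had an UP region of 1347 bp (chr5:115559350-115560696) and Rplp2 one of 1877 bp (chr7:141446786-141448662), whereas the third stalk gene, Rplp1, lay in an unchanged region of 1511 bp. Rpl23a and Rpl35 line the exit of the peptide tunnel, where the signal recognition particle docks. The region of Rpl23a measured 2378 bp (chr11:78181824-78184201), and that of Rpl35 was the widest of all at 9427 bp (chr2:39002902-39012328), reaching over the TSS of Arpc5l. Rpl10, on the X chromosome, encodes a protein added late in assembly, and its UP region measured 3285 bp (chrX:74269204-74272488). The other X-linked genes Rpl36a, Rpl39 and Rps4x lay in unchanged regions of 1211 bp, 2460 bp and 2643 bp (Rps4x at chrX:102186755-102189397). Rpl38, whose protein is known for its part in translating Hox mRNAs, had an UP region of 2472 bp (chr11:114668481-114670952). The other UP genes of the large subunit that shared no region were Rpl29 (1993 bp, chr9:106428889-106430881) and Rpl34 (1661 bp, chr3:130729332-130730992). Rpl5 and Rpl11, which bind the 5S RNA and can hold back Mdm2, both lay in unchanged regions, of 2485 bp and 1507 bp.

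Of the small subunit, Rpsa, which also encodes a laminin receptor, had an UP region of 2681 bp (chr9:120126901-120129581). Rps15a had one of 2840 bp (chr7:118113870-118116709). Rps25, which some viral internal ribosome entry sites need, and Rps28 lay in UP regions of nearly equal width, 1955 bp (chr9:44406566-44408520) and 1950 bp (chr17:33823723-33825672), each shared with another gene. Rps6, the substrate of S6 kinase downstream of mTOR, lay in an unchanged region of 1755 bp. Rps27a, which encodes a fusion of ubiquitin and a small subunit protein, lay in an unchanged region of 2273 bp.

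Rps27l was the only cytosolic ribosomal protein gene in a DOWN region. It lies at chr9:66946086-66949516, its region spans chr9:66945466-66947226 and measured 1761 bp, and 620 bp of it lie before and 1140 bp after the TSS. This width was below the first quartile of all genes at DOWN regions (2485 bp). Rps27l is a paralog of Rps27 and a known target of p53. Rps27 itself lay in an unchanged region of 2081 bp (chr3:90211871-90213951), which it shares with Rab13. Mdm2, another known p53 target, which is in a list given further on, also lay in a DOWN region. That region measured 3849 bp, and of all genes in its width decile, from 3678 to 5525 bp, 18.8% were DOWN. No list of p53 targets was examined, and a part of p53 was not tested. Without Rps27l and the 3 other paralogs whose symbol ends in l, no gene of 76 remained at a DOWN region.

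**Figure D2:**
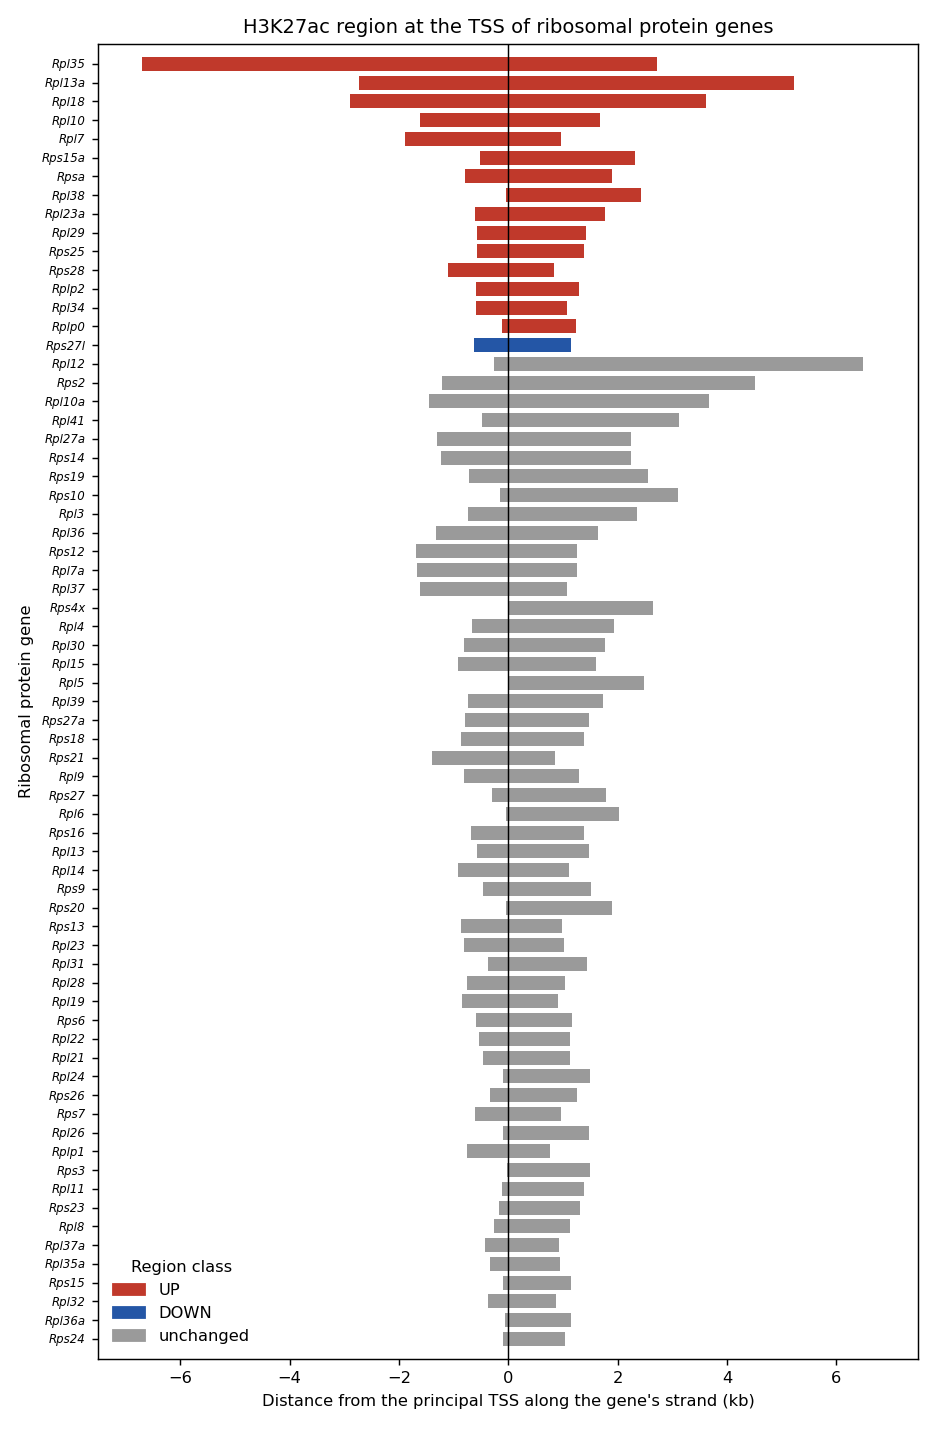
Extent of the widest H3K27ac region (x axis, in kb from the principal TSS along the gene's strand) of 69 of the 74 ribosomal protein genes whose principal TSS lies in it, with 5 genes left out, 1 row per gene, coloured by class and ordered by width within a class. Most bars reach further to the right of the TSS than to the left, and Rps27l is the single DOWN gene.

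The regions lay over the start and along the gene, and some, such as those of Rpl10a, Rpl12 and Rpl36, ran past its annotated end. The principal TSS, that of the most upstream principal transcript, fell in the region for 74 of 77 genes, and the regions reached a median of 610 bp before it and 1382 bp after it. Of the 74, 65 (87.8%) extended further downstream of the TSS than upstream, against 67.9% of protein-coding genes with a region, whose medians were 663 bp and 987 bp. UP genes reached 702 bp before and 1551 bp after the TSS at the median, and unchanged genes 592 bp and 1375 bp. A wide exception that reached mostly upstream was Rpl35, with 6704 bp before the TSS. For Rpl27, Rpl17 and Rps29, the region held only the TSS of another transcript.

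Ribosomal protein genes had regions of intermediate width. The median was 2058 bp, the quartiles 1591 bp and 2840 bp, and the range 1013 bp to 9427 bp, whereas all genes with a region had a median of 1850 bp, quartiles of 1142 bp and 3189 bp and a range from 210 bp to 37515 bp. Large and small subunit genes had nearly the same median, 2058 bp and 1982 bp. The median was 2576 bp for the 16 UP genes and 2004 bp for the 60 unchanged genes, and over all genes it was 2298 bp at UP, 4155 bp at DOWN and 1672 bp at unchanged regions. After Rpl35, the widest regions were the UP region of Rpl13a, at 7967 bp, and the unchanged region of Rpl12, at 6751 bp (chr2:32961290-32968040). The narrowest were unchanged and belonged to Rpl27 (1013 bp, chr11:101442300-101443312), Rps29 (1081 bp, chr12:69158089-69159169) and Rps24 (1130 bp, chr14:24490622-24491751).

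**Figure D3:**
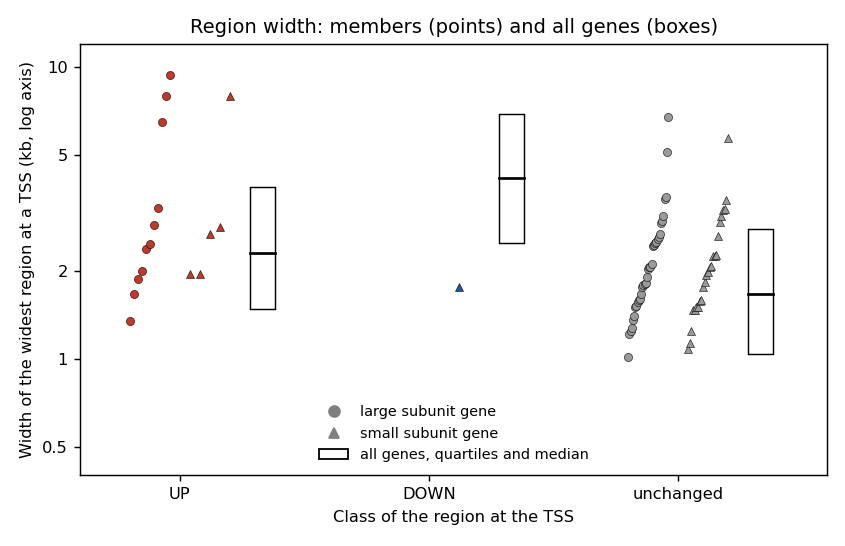
Width of the widest region at a TSS (y axis, kb on a log scale) by class, with 1 point per ribosomal protein gene (circles large, triangles small subunit) and boxes for the quartiles and median of all genes in that class. The DOWN gene Rps27l, at 1761 bp, lies below the box of all DOWN genes, and the UP genes spread from 1347 bp to 9427 bp.

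Class varied with width, and over all genes the DOWN share climbed from 1.30% in the narrowest decile of widths to 31.7% in the widest. The UP share climbed from 9.28% to 28.5% over the same deciles. When all genes were weighted to the width deciles of the ribosomal protein genes, 23.3% lay in UP regions, which corresponds to 17.9 of 77 genes beside the 16 counted. The weighted DOWN share was 8.51%, or 6.55 of 77 genes beside the 1 counted, and the weighted unchanged share was 72.3%. For the large subunit the weighted shares were 23.4% UP and 8.85% DOWN, and for the small subunit 23.1% and 8.02%. In the window of 1351 to 3564 bp, which held 61 of the genes, 11 were UP, 1 was DOWN and 49 were unchanged, whereas of 5675 genes of that width 23.4% were UP, 6.68% DOWN and 73.4% unchanged. The interval of the DOWN share in this window ran from 0.290% to 8.72% and held the share of all genes of like width, so the counts do not separate them there. In the widest decile, from 5530 bp, lay 6 ribosomal protein genes, of which 4 were UP and 0 DOWN. Each of these UP genes shared its region with another protein-coding gene, and not all of them lay in separate regions.

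**Figure D4:**
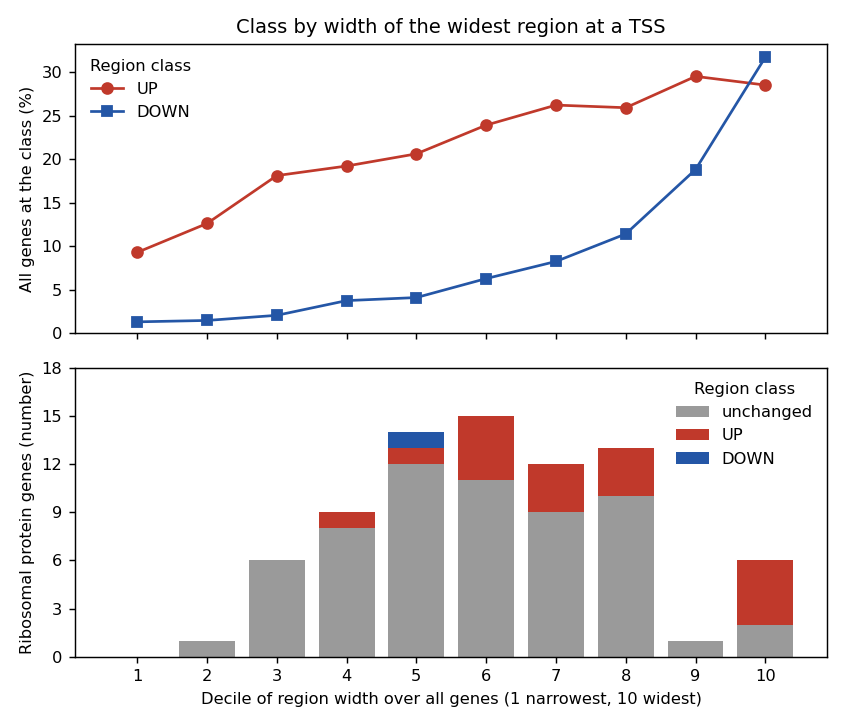
Top, share of all genes (y axis, percent) at UP and DOWN regions in each decile of the width of the widest region at a TSS; bottom, number of ribosomal protein genes in each decile, stacked by class. The DOWN share of all genes reaches 31.7% in decile 10, where 4 of 6 ribosomal protein genes are UP and none is DOWN. Not all of these UP genes lie in separate regions.

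Several regions belonged to more than a ribosomal protein gene. Of the 77 genes, 20 (26.0%) shared their region with the TSS of another protein-coding gene, against 23.0% of all protein-coding genes with a region. The share was 7 of 16 among UP genes (43.8%) and 13 of 60 among unchanged genes (21.7%), so for these the class cannot be given to a single promoter. The 16 UP genes lay in 15 distinct regions, so 1 region counts more than once. The share over all genes at UP regions, which were wider at the median than unchanged ones, was not computed. Rpl13a, which has a part in translational silencing by interferon, had an UP region of 7967 bp (chr7:45123533-45131499). The UP region of Rpl18 (6505 bp, chr7:45712569-45719073) holds a TSS of Sphk2, and that of Rpl7 (2865 bp, chr1:16103692-16106556) a TSS of Rdh10. Rps25 shares with Trappc4 and Rps28 with Ndufa7. Without the genes in shared regions, 9 of 57 were UP and 1 was DOWN, and their median width was 1835 bp against 2896 bp for the shared ones. No share over all genes in unshared regions was computed beside these counts.

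Unchanged regions with another coding gene were those of Rpl12 with Lrsam1, Rps2 with Ndufb10 (5708 bp, chr17:24718858-24724565), Rpl41 with Zc3h10 (3599 bp, chr10:128546183-128549781), Rps14 with Ndst1 (3488 bp, chr18:60745914-60749401) and Rpl7a with Med22 (2928 bp, chr2:26909097-26912024). The others were Rpl4 with Zwilch (2606 bp, chr9:64172706-64175311), Rpl15 with Nkiras1 (2519 bp, chr14:18269470-18271988), Rps27a with Clhc1 (chr11:29546628-29548900), Rps18 with Vps52 (2250 bp, chr17:33954293-33956542), Rpl9 with Lias (2112 bp, chr5:65390143-65392254), Rpl35a with Iqcg (1273 bp, chr16:33056121-33057393) and Rps27 with Rab13. Rps10 (3246 bp, chr17:27633570-27636815) shared with an annotated read-through of its own transcription unit, RPS10-NUDT3.

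The remaining unchanged genes of the large subunit included Rpl6, Rpl8, Rpl10a, Rpl13, Rpl14, Rpl17, Rpl19, Rpl21, Rpl22, Rpl23, Rpl24, Rpl26, Rpl27a, Rpl28, Rpl30, Rpl31, Rpl32, Rpl36, Rpl37 and Rpl37a, beside Rpl3, Rpl5, Rpl11, Rpl27, Rpl36a, Rpl39 and Rplp1 named before. Their widths ran from 1013 bp (Rpl27) to 5120 bp (Rpl10a). Those of the small subunit included Rps3, Rps7, Rps9, Rps12, Rps13, Rps15, Rps16, Rps19, Rps20, Rps21, Rps23 and Rps26, beside Rps4x, Rps6, Rps24 and Rps29, and ran from 1081 bp (Rps29) to 3267 bp (Rps19). Rps19, the gene most often mutated in Diamond-Blackfan anaemia, thus lay in an unchanged region (chr7:24883651-24886917).

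DOWN regions were not missing from the surroundings of these genes. Within 50 kb of a TSS, 20 of 77 genes (26.0%) had at least 1 DOWN region other than their own, near the 26.6% of protein-coding genes with a region. Other UP regions lay that near to 30 genes (39.0%), against 42.5%. The most DOWN neighbours, 4, were counted around Rpl26, whose own region was unchanged, and Rplp0 had 2 DOWN neighbours around its UP region. Of the 16 UP genes, 6 (37.5%) had a DOWN region and 7 (43.8%) another UP region within this distance. Chromosome 7 held 14 of the 77 genes and 5 of the 16 UP genes, and chromosome 9 held 7 and 3. The UP share over all genes of these chromosomes was not computed, so the counts do not show that UP genes cluster there.

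UP genes were about as frequent among snoRNA hosts as among the others. Of the 29 genes with an annotated snoRNA inside them, 6 were UP and 0 DOWN, and of the 48 others 10 were UP and 1 was DOWN. Over all genes with a region at a TSS, 21.4% were UP and 8.91% DOWN, so both UP shares were near the background. Host genes had wider regions at the median, 2460 bp against 1880 bp. Among UP hosts, Rpl13a holds Snord32a, Snord33, Snord34 and Snord35a and Rplp2 holds Snora52.

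TOP starts and ETS motifs were more frequent in these promoters than in those of all genes, in UP and unchanged genes alike. RefSeq promoters, from 250 bases before to 50 after the start, matched 60 of the 80 genes, of which 56 had this start in a region. A TOP start, here a C within 5 bases of the annotated start followed by at least 4 pyrimidines on the sense strand, was found in 27 of 56 (48.2%), against 19.9% of the 8759 genes with a promoter in a region. It stood in 7 of 12 UP genes (58.3%) and 19 of 43 unchanged genes (44.2%), as well as in Rps27l. A pyrimidine run of at least 8 bases across the start was found in 15 of 56 (26.8%) against 5.78%. Of the printed starts, that of Rps28 had no TOP match, which says only that these letters are not at the annotated start.

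Motifs were searched on both strands, and a match is a description of letters, not of a bound factor. The ETS motif CCGGAAG occurred in 23 of 56 promoters (41.1%), against 20.1% of genes with a promoter in a region, and in 41.7% of UP and 39.5% of unchanged genes. The YY1 motif AAGATGG occurred in 14.3% against 7.81%, and the cyclic AMP response element TGACGTCA in 8.93% against 3.63%. The SP1 motif GGGCGG was found in 58.9% against 64.2%, with 10 of 12 UP genes (83.3%) and 22 of 43 unchanged genes (51.2%). CCAAT was found in 33.9% against 36.9%, with 6 of 12 UP and 12 of 43 unchanged genes. TATAAA (8.93% against 6.98%), the NRF1 motif GCGCATGC (3.57% against 5.71%) and the E-box CACGTG (8.93% against 10.7%) stood near the background. The letters TGATGCAA, a composite site of ATF4 and CHOP, occurred in 0 of 56 promoters and in 0.651% of genes with a promoter in a region. GC content of the regions was similar between classes, with medians of 52.4% for UP genes, 52.5% for unchanged genes and 53.7% for Rps27l, where all genes had 54.5% and all genes at DOWN regions 50.2%. The ratio of observed to expected CpG differed more, with medians of 0.568 for UP genes, 0.665 for unchanged genes and 0.732 for Rps27l. Over all genes this ratio was 0.606 at UP, 0.344 at DOWN and 0.664 at unchanged regions.

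Other genes of the translation apparatus are given for comparison, and a gene with regions of 2 classes counts in each. Among cytosolic ribosomal proteins and related genes that the symbol rule leaves out, Fau and Rpl36al lay in UP regions. Rack1, Rpl7l1 and Rpl22l1 lay in unchanged regions, and Rps3a1 had no region. Of the 6 genes of this list with a region, 2 were thus UP, where all genes weighted to their widths gave 24.0%, or 1.44 of 6 genes. Of 77 mitochondrial ribosomal protein genes with a region, 14 were UP (18.2%, from 11.2% to 28.2%) and 3 DOWN (3.90%), namely Mrpl33, Mrps35 and Mrps6. Their regions were narrower, with a median of 1129 bp, and all genes weighted to these widths gave 16.9% UP and 3.83% DOWN. The UP shares of cytosolic and mitochondrial ribosomal protein genes thus lay close to each other and to their backgrounds.

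Genes that build ribosomes had a higher UP share than the ribosomal protein genes, a difference described here without a test. Of 37 ribosome assembly genes with a region, 19 were UP (51.4%, from 35.9% to 66.6%), against 20.3% of all genes weighted to their widths, and 1, Rrs1, was DOWN. This interval covers counting error only, and the list was chosen with earlier results of these data known. No conclusion is therefore drawn from the difference. Of 50 genes whose symbol starts with Eif and a digit, which include initiation factors, eIF2 kinases and 4E-binding proteins, 18 were UP (36.0%, from 24.1% to 49.9%), against a weighted 21.6%, and 1, Eif4ebp3, was DOWN. Of 6 elongation factor genes, Eef1b2, Eef1d and Eef1g were UP and none was DOWN, where all genes weighted to their widths gave 23.4% UP and 10.7% DOWN, or 1.40 and 0.640 of 6 genes. A last list held regulators of translation and ribosome synthesis together with Mdm2. Of its 15 genes with a region, 5 were UP, among them Eif2ak3 (PERK), the translational repressor Eif4ebp1 and Myc, a driver of ribosome synthesis. DOWN regions held 2, Eif4ebp3 and Mdm2. The weighted background was 22.4% UP and 12.4% DOWN, or 3.36 and 1.85 of 15 genes, and the DOWN count was thus at its background. Eif2ak3, Eif2ak4, Eif4ebp1, Eif4ebp2 and Eif4ebp3 belong to the last list and to the Eif list alike. Eif6 belongs to the Eif list and to the ribosome assembly list.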

How the data were processed

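H3K27ac ChIP-seq of MPH comprised 8 libraries. Per the labels and the study's methods, the authors aligned reads with Bowtie to mm10, ran MACS2 for broad peaks on H3K27ac reads pooled over libraries, extended reads to 200 bp for counting in 150 bp bins, discarded bins that did not exceed input, normalized by loess and fitted a paired quasi-likelihood model with csaw. Per region, bins sharing 75 bp or more with its peak were combined, and regions that met no criterion clearly were discarded. The deposited values are start and end positions in bp, converted here to 1-based starts, and neither the depth nor the pairing can be checked from them. The study's printed code takes thapsigargin as the reference level, with which its up bins would be higher in DMSO and the class names would be reversed. The deposited names were kept, and the ERS genes Hspa5, Ddit3, Herpud1 and Xbp1 all have a TSS in an UP region.

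TSSs came from 141767 transcripts of GENCODE release M21, an annotation on the same assembly. Shares over all genes were also weighted to the 10 deciles of the width of each gene's widest region. The members and gene lists were chosen with earlier results of these data known. Named with positions are the genes at UP or DOWN regions, those with none, the 3 widest and 3 narrowest, those in shared regions, and paralogs ending in l or x. Promoters and motifs were read from RefSeq. Alternatives were another TSS set, TSSs within 1 kb, regions covering 500 bp on each side, regions of at least 1 kb, each gene counted once, protein-coding genes, width weighting and other member lists. Some genes are counted but not reported here by name. The functions were tested on simulated data. Counts and figures were made with pandas 2.3.3, numpy 2.4.6 and matplotlib 3.10.9 in Python 3.11.15, and Wilson intervals with scipy 1.17.1.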

Additional observations from a re-analysis of the deposited data

How the results depend on the processing

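No paired analysis was possible because the lists give positions without a value for any library, and for the same reason no library could be left out. Of 64 values under alternatives, 47 stayed within the 95% interval of the main share and 17 moved. The UP, DOWN and unchanged shares of cytosolic ribosomal protein genes and the UP share of each subunit stayed in that interval under every alternative but 1, and the other shares of the subunits were not recomputed. The exception was that, without the paralogs whose symbol ends in l, 0 of 76 genes lay in DOWN regions. A start within 1 kb of a region, regions of at least 1 kb and each gene counted once changed the class of 0 genes. The minimum of 1 kb and counting once could change none, since the narrowest of these regions measured 1013 bp and no gene had regions of more than 1 class. Values fixed in this way are among the 47. With TSSs of protein-coding transcripts Rps29 lost its region, and with the most 5' coding TSS Rpl3, Rpl17, Rpl27, Rps2 and Rps29 did. Regions that cover 500 bp on each side left 60 genes, of which 14 were UP (23.3%) and 1 DOWN (1.67%), and the UP genes Rpl38 and Rplp0 were among the 17 that lost theirs.

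Over all genes, intervals are narrow and more shares moved. The UP share was 24.3% with 500 bp covered, 20.4% with each gene counted once, 23.7% with regions of at least 1 kb and 23.3% with width weighting. The DOWN share was 7.66% for coding transcripts, 6.90% for the most 5' coding TSS, 11.9% with 500 bp covered, 10.6% with at least 1 kb and 8.31% for protein-coding genes. The unchanged share was 75.4% with a TSS within 1 kb, 72.2% for the most 5' TSS, 66.8% with 500 bp covered, 71.1% counted once, 69.5% with at least 1 kb, 74.9% for protein-coding genes and 72.3% with width weighting. The cause was not tested. The DOWN share of the ribosomal protein genes stayed below that of all genes under each of these settings, but 6.90% lies inside its main interval.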
